A study of Homo sapiens with 2 samples.

Results

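The genes examined here encode the nuclear subunits of the mitochondrial oxidative phosphorylation system and a group of its assembly factors. They were chosen by a rule on gene symbols, with earlier results of these data known. The rule took protein-coding autosomal RefSeq genes (GRCh38.p14) whose symbols begin NDUFA, NDUFB, NDUFC, NDUFS, NDUFV, SDHA to SDHD, UQCR, COX4I, COX5, COX6, COX7, COX8 or ATP5. This gave 97 of the 19126 protein-coding autosomal genes of the gene table. PHF8 binding had been profiled by chromatin immunoprecipitation and sequencing (ChIP-seq) in RKO cells, a line established from a human colon carcinoma. The cells had been transfected with either empty vector or a plasmid that overexpresses APOC2, an apolipoprotein gene, and both groups otherwise had the same parental cells, medium and antibody. There was 1 library and 1 deposited peak table for each condition, with 4015 vector and 8928 APOC2 peaks. A gene was called occupied when the midpoint of a peak lay within 1 kb of its annotated start or end. Without replicates no difference between the libraries could be tested, so every comparison describes these libraries. Intervals of shares cover counting error only, and intervals of medians cover the spread over genes. Neither covers variation between libraries.

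Oxidative phosphorylation passes electrons from NADH (complex I) and succinate (complex II) through complex III to oxygen at complex IV, and complex V, the ATP synthase, uses the resulting proton gradient to make ATP. Most subunits are encoded in the nucleus, and their promoters are known for binding sites of NRF1, of ETS factors such as GABPA, and of YY1. PHF8 is a histone demethylase whose PHD finger binds histone H3 trimethylated at lysine K4, a mark of active gene starts, and whose catalytic domain removes repressive methyl groups from other histone lysines.

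The promoters below show the DNA next to which the peaks lay, for a contrasting pair with no peak and for the strongest gene of each complex in each class. The choice was limited to genes with a promoter entry and left out NDUFB9 and UQCRB. Each run covers 250 bases before to 50 bases after the transcription start (RefSeq, GRCh38.p14), read 5′ to 3′ on the strand of the gene, and the first transcribed base is base 251. Capitals mark matches, on either strand, to NRF1 (GCGCANGCG), ETS (CCGGAAG), YY1 (AAGATGGCG), SP/KLF (GGGCGG), the CCAAT box (CCAAT) and the TATA box (TATAAA), and matches may overlap. Genes with a peak in both tables are represented by NDUFB2 (chr7:140696458-140696757, plus strand) of complex I, NDUFAF1 (chr15:41402447-41402746, minus strand), an assembly factor, COX4I1 (chr16:85799445-85799744, plus strand) of complex IV and ATP5F1C (chr10:7787927-7788226, plus strand) of complex V.
NDUFB2: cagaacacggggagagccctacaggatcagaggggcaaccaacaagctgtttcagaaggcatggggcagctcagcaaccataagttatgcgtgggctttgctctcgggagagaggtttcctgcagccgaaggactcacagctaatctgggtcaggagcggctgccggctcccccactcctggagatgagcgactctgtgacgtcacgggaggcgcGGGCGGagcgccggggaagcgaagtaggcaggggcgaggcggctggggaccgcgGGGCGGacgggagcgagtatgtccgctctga
NDUFAF1: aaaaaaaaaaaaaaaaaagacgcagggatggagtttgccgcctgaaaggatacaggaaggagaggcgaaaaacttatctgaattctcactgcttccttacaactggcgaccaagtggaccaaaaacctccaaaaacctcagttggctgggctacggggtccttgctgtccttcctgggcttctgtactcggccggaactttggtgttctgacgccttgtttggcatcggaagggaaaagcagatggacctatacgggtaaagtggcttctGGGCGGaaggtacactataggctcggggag
COX4I1: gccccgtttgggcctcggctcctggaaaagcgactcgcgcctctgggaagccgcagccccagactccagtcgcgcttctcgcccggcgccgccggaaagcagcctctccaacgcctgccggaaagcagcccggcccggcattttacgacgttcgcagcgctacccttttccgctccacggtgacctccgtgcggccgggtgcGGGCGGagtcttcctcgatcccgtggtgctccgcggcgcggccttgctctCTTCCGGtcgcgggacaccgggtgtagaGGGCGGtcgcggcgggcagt
ATP5F1C: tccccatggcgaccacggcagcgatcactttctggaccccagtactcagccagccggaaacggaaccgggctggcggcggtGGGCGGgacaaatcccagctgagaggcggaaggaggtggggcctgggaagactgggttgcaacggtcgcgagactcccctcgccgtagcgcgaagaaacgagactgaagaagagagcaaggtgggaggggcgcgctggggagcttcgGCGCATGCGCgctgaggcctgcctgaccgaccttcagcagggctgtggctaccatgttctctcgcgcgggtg
Genes with a peak in the APOC2 table only are represented by NDUFB3 (chr2:201071751-201072050, plus strand) of complex I, SDHAF1 (chr19:35994938-35995237, plus strand), an assembly factor of complex II, UQCR10 (chr22:29767119-29767418, plus strand) of complex III, COX5A (chr15:74938024-74938323, minus strand) of complex IV and ATP5PB (chr1:111449214-111449513, plus strand) of complex V.
NDUFB3: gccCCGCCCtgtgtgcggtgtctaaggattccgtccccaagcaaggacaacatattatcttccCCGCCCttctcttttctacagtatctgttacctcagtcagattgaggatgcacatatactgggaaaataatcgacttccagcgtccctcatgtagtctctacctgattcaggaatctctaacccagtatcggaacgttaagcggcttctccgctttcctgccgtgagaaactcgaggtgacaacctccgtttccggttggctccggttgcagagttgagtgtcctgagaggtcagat
SDHAF1: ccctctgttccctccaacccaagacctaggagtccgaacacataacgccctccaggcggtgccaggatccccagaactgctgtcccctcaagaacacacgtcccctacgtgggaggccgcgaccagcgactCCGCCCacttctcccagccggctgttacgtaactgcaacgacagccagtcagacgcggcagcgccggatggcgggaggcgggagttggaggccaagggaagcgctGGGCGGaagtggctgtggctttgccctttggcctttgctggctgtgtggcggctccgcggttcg
UQCR10: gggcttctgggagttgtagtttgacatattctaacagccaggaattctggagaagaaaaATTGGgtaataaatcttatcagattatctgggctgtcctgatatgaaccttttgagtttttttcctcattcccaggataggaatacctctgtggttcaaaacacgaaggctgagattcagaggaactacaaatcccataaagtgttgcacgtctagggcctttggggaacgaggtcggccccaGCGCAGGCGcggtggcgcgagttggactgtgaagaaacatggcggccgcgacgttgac
COX5A: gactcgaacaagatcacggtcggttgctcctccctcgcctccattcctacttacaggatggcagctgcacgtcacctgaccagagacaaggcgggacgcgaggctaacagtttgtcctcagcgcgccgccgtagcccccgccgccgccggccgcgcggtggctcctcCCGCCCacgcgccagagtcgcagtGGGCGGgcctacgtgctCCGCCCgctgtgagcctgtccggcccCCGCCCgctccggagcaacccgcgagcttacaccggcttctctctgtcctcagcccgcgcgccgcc
ATP5PB: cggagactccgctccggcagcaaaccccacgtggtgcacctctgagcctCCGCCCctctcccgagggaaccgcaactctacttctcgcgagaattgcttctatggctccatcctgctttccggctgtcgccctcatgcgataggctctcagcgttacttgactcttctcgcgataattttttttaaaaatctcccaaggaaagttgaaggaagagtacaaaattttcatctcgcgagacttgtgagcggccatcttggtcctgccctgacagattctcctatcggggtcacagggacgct
Genes with no peak in either table are represented by SDHB (chr1:17053983-17054282, minus strand), the iron-sulfur subunit of complex II, and COX6A2 (chr16:31428311-31428610, minus strand), the muscle isoform of a complex IV subunit.
SDHB: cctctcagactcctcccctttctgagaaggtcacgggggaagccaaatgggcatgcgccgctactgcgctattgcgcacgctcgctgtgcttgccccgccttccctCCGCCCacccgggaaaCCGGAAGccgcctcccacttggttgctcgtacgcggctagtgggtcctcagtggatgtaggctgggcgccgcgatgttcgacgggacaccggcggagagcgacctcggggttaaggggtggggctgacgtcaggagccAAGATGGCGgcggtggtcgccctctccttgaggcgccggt
COX6A2: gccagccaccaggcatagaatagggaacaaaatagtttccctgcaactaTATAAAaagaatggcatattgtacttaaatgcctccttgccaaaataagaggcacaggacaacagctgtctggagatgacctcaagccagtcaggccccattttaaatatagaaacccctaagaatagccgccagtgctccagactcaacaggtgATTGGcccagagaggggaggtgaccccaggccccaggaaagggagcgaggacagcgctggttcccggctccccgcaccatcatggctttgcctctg

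Of the 97 genes, 14 were occupied in the vector library (14.4%, 95% Wilson interval 8.80 to 22.8%) and 44 in the APOC2 library (45.4%, 35.8 to 55.3%). Over all protein-coding autosomal genes the same rule called 6.19% from the vector peaks and 24.7% from the APOC2 peaks. All 14 genes with a vector peak also had an APOC2 peak, where 6.08% of all genes were in both tables. A further 30 (30.9%, 22.6 to 40.7%) had a peak in the APOC2 table only, against 18.6% of all genes. When only as many APOC2 peaks were kept, by rank, as the vector table holds, the APOC2-only class held 12 members, against 7.96% of all genes. NDUFAF2 and UQCRB then moved to the vector table only, a class that held 1.13% of all genes at this setting. With all listed peaks, no member had a peak in the vector table only, a class that held 0.11% of all genes. Neither table had a peak within 1 kb at 53 of the 97 members and at 14390 of the 19126 coding genes. Of the members with an APOC2 peak, 31.8% thus had a vector peak too, as did 24.6% (23.4 to 25.9%) of all coding genes with an APOC2 peak. The shares of members lay above those of all coding genes for each library, and the lack of a vector peak at most members with an APOC2 peak was shared with coding genes in general.

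By complex, counts were small and no difference was tested. Complex III, which carries electrons from ubiquinol to cytochrome c, had peaks at 7 of 9 genes in the APOC2 library (77.8%, 45.3 to 93.7%) and at 1 in the vector library. Complex I, the NADH dehydrogenase, had 15 of 36 (41.7%, 27.1 to 57.8%) and 6. Complex IV, cytochrome c oxidase, had 5 of 16 (31.3%, 14.2 to 55.6%) and 2, and complex V had 6 of 20 (30%, 14.5 to 51.9%) and 3. The APOC2 shares of complexes IV and V were near the 24.7% of all coding genes. None of the 4 subunits of complex II, succinate dehydrogenase, had a peak in either library (upper bound of the interval 49%). The APOC2 intervals of the 5 complexes overlapped. The assembly factors had peaks at 7 of 8 NDUFAF genes and all 4 SDHAF genes in the APOC2 library, and 2 NDUFAF genes in the vector library. Together 11 of 12 assembly factors (91.7%, 64.6 to 98.5%) and 33 of 85 other members (38.8%, 29.2 to 49.5%) were occupied in the APOC2 library. Their shares with a vector peak were 16.7% (4.70 to 44.8%) and 14.1% (8.26 to 23.1%). The APOC2 contrast rested on weak peaks. At a fold enrichment of at least 5, 4 of 12 assembly factors (33.3%, 13.8 to 60.9%) and 21 of 85 other members (24.7%, 16.8 to 34.8%) were occupied, while complex III kept 4 of 9. The share of all coding genes at this threshold was 14.6%. With as many APOC2 as vector peaks kept, the occupied assembly factors were again 4 of 12, beside 20 of 85 other members (23.5%, 15.8 to 33.6%). The share of all coding genes was then 13%. The factors lost at the higher fold enrichment were NDUFAF2, NDUFAF3, NDUFAF5, NDUFAF6, NDUFAF7, SDHAF2 and SDHAF3.

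**Figure D1:**
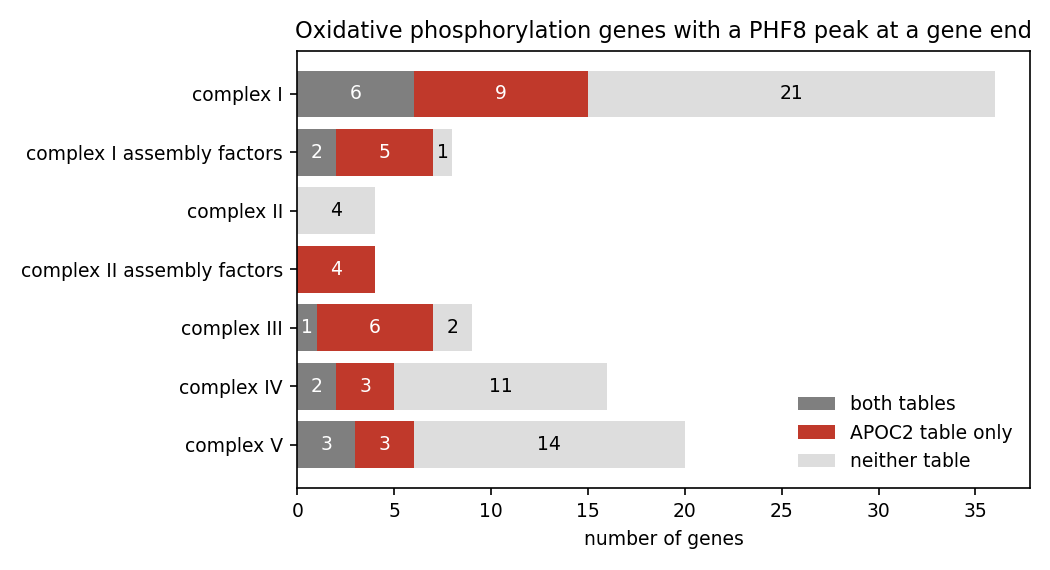
Number of oxidative phosphorylation genes with a PHF8 peak midpoint within 1 kb of an annotated end, by complex (bars, in genes; 1 library for each condition). Complex II has 4 genes in neither table, while its 4 assembly factors all have a peak in the APOC2 table only.

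At the 14 genes with peaks in both tables, the fold enrichment over local background at the summit, as the authors' peak caller gave it, was higher in the APOC2 library at 13. Over all coding genes in both tables, 89.6% were higher. As a log2 ratio of APOC2 to vector, the median difference in fold enrichment was 0.60 (95% order-statistic interval 0.17 to 0.99, n = 14 genes), and over the 1162 coding genes in both tables it was 0.52 (0.49 to 0.55). The peaks of the tables overlapped at all 14 genes, and at 13 their summits lay within 100 bp of each other. The APOC2 peak was the longer at 13 of the 14, with a median length of 436.5 bp against 290.5 bp. Over the 1162 coding genes in both tables the median lengths were similar, 455 bp and 285 bp. Shares of overlapping peaks, nearby summits or longer APOC2 peaks over those genes were not computed.

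In complex I, the strongest peak of the set was at NDUFB9, a subunit of the membrane arm, where fold enrichment was 9.24 with vector and 18.4 with APOC2 (log2 ratio 0.99). Another membrane-arm subunit, NDUFB2, went from 8.47 to 15.1 (0.83) and had the highest pileup of the set, 66.3 fragments with vector and 99 with APOC2. NDUFA8, which has a twin cysteine motif and faces the intermembrane space, had 7.67 and 13.2 (0.78). Among the 14 shared members the widest gap was at NDUFV2, an iron-sulfur subunit of the NADH-oxidizing module, with 4.55 and 11.3 (1.31). NDUFA6 had 5.51 and 7.34 (0.42), and NDUFS6, a zinc-binding subunit, had 5.09 and 6.35 (0.32). All 6 complex I genes were thus higher in the APOC2 library, in fold enrichment, by amounts that ranged widely.

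Both assembly factors with a vector peak serve complex I. NDUFAF1, which acts in building the membrane arm, had a fold enrichment of 4.29 and 6.93 (log2 ratio 0.69). NDUFAF2, a late-acting factor, had 4.14 and 4.65 (0.17). In complex III, UQCRB, a small subunit near the ubiquinone site, had nearly equal fold enrichments of 5.15 and 5.43 (0.08). It was also the only shared member with the lower depth-scaled pileup in the APOC2 library, a measure explained below. In complex IV, COX4I1, an early-assembling subunit that takes part in regulation by ATP, had 4.27 and 6.70 (0.65), and COX6C had 4.58 and 6.51 (0.51).

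In complex V, peaks in both libraries lay at the genes of the alpha, beta and gamma subunits of the catalytic head, and at no other gene of the complex. ATP5F1A (alpha) had a fold enrichment of 5.11 and 10.9 (log2 ratio 1.09), and ATP5F1C (gamma, the rotating shaft) had 7.90 and 11.6 (0.56). ATP5F1B (beta, which carries the catalytic sites) was the only shared member with a lower fold enrichment in the APOC2 library, 7.16 and 5.22 (-0.45). It was singled out after its values were seen. Its pileup was 36.6 with vector and 39 with APOC2. The local background at its summit, in fragments at the depth of the control, was 4.26 and 8.0, with summits 78 bp apart. The genes of the remaining head subunits, ATP5F1D and ATP5F1E, had no peak in either library.

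**Figure D2:**
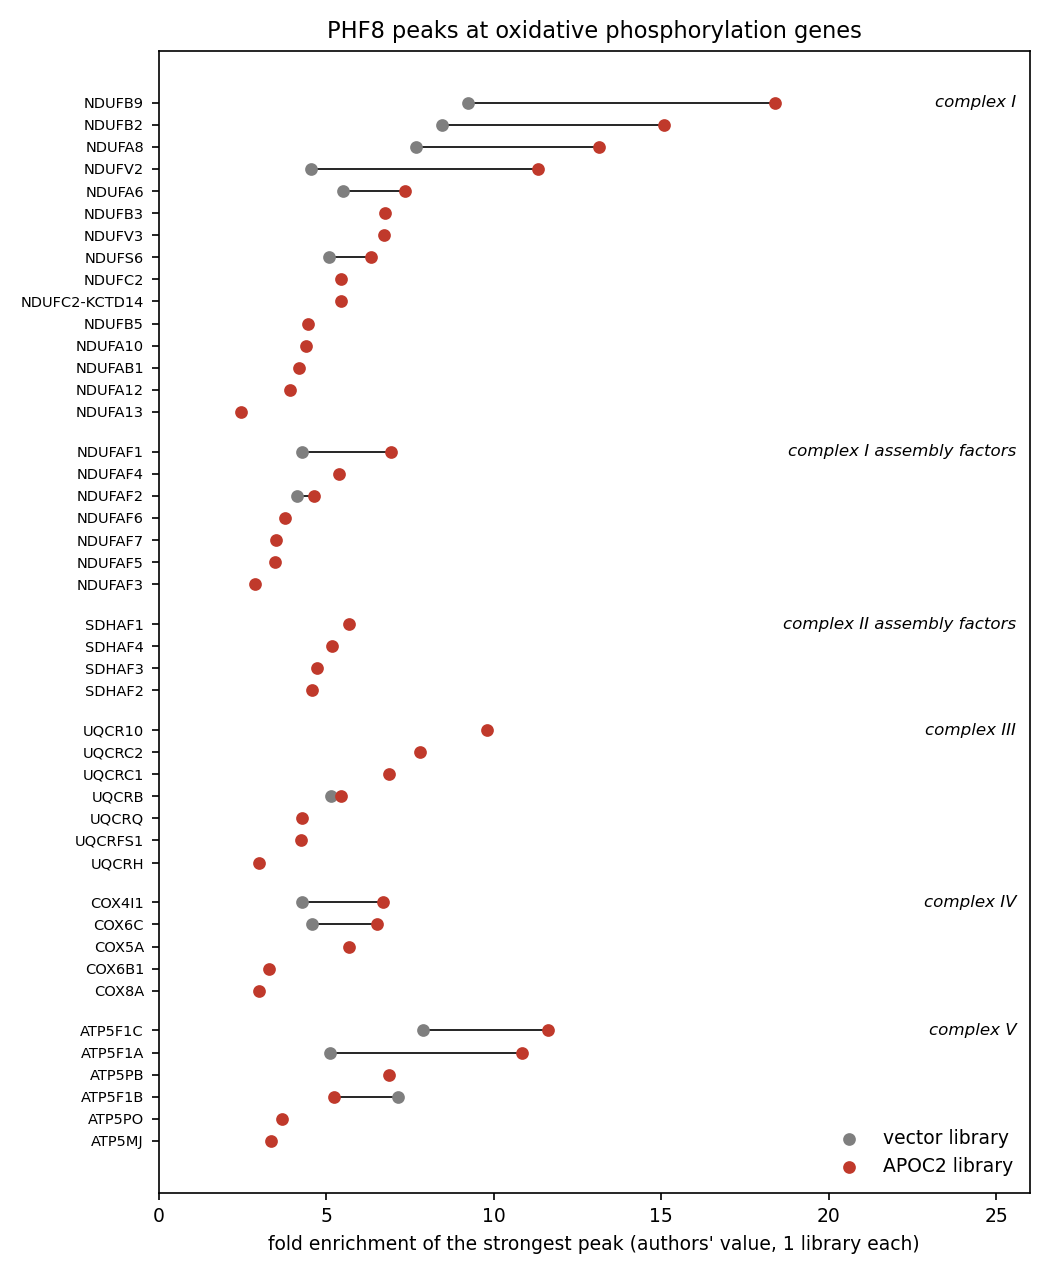
Fold enrichment (x axis, ratio over local background) of the strongest PHF8 peak at each of the 44 occupied genes, ordered by complex; grey points are the vector library, red points the APOC2 library, and a line joins the values of a gene with both. The red point lies to the right at 13 of 14 joined genes, the exception being ATP5F1B.

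The 30 genes occupied in the APOC2 table only had weaker APOC2 peaks than the 14 shared genes. Their median fold enrichment was 4.42 (3.79 to 5.44, n = 30 genes), against 7.14 (5.43 to 13.2, n = 14), and their median pileup was 28 against 38.5 fragments. Over all coding genes the medians of fold enrichment were 5.004 and 7.23, so the gap between the classes was of similar size in the whole table.

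In complex III the APOC2-only peaks included the strongest of this class. UQCR10, a small subunit, had a fold enrichment of 9.79 with a pileup of 23, over a low local background. The core proteins UQCRC2 and UQCRC1 had 7.79 and 6.86, with pileups of 28 and 37. UQCRQ and UQCRFS1, the Rieske iron-sulfur protein, had 4.29 and 4.25, and the hinge protein gene UQCRH had the lowest value, 3.003. In this complex, UQCR11 and UQCRHL, a gene similar to UQCRH, had no peak.

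Among complex I genes in the APOC2 table only, NDUFB3 had the highest fold enrichment, 6.77, from a pileup of 14 fragments, the lowest pileup of the class. NDUFV3, a small subunit of the NADH-oxidizing module, had 6.74 with a pileup of 45, the highest of the class. NDUFC2 had 5.44, and the read-through gene NDUFC2-KCTD14, which shares its start with NDUFC2, was called from the same peak. These 2 entries are therefore not separate observations. NDUFB5, NDUFA10, NDUFAB1 (the mitochondrial acyl carrier protein) and NDUFA12 lay between 3.92 and 4.46. NDUFA13 had the lowest value of the class, 2.47 with a pileup of 20 and a -log10 q of 1.58.

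The assembly factors in the APOC2 table only had modest peaks. SDHAF1, needed for the iron-sulfur clusters of SDHB, had a fold enrichment of 5.67, and SDHAF4, which binds flavinylated SDHA, had 5.17. SDHAF3, also an iron-sulfur factor, had 4.72, and SDHAF2, which attaches FAD to SDHA, had 4.59. These 4 peaks stood beside subunit genes without any: SDHA, SDHB, SDHC and SDHD. Of the complex I factors, NDUFAF4 had 5.39, NDUFAF6 had 3.79, the hydroxylase NDUFAF5 and the methyltransferase NDUFAF7 had 3.49 and 3.50, and NDUFAF3 had the lowest value, 2.88. NDUFAF8, a partner of NDUFAF5, was the only assembly factor without a peak.

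In complex IV, COX5A had a fold enrichment of 5.67 in the APOC2 table only, while COX6B1 and COX8A had 3.29 and 3.003. In complex V, ATP5PB and ATP5PO of the peripheral stalk had 6.86 and 3.70, and the membrane-sector protein gene ATP5MJ had 3.37. The stalk genes ATP5PD and ATP5PF, and the c-ring genes ATP5MC1, ATP5MC2 and ATP5MC3, had no peak.

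Absence from the vector table does not mean absence of signal, so the pileup that could go unlisted was computed. The tables kept traces of the scaling by the peak caller, which put the depth of the APOC2 library at 0.824 times that of the other if the control was the same for both. In units of the control's depth, the local backgrounds of the libraries were within 1.2 times of each other at 10 of the 14 shared members and at 71% of all shared coding genes. Depth-scaled pileup, the pileup in these units, was higher in the APOC2 library at 13 of 14 shared members, against 92.3% of shared coding genes. Its median log2 ratio was 0.51 (0.36 to 0.90, n = 14 genes), and 0.56 over all shared coding genes. UQCRB was the exception, with 24.7 for vector and 21.6 for APOC2.

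For the 30 genes in the APOC2 table only, the highest vector pileup was found whose Poisson -log10 p, at the background of the APOC2 peak, stayed below 4.70, the lowest value listed in the vector table. A vector pileup of up to 8 to 29 fragments (median 18) could have gone unlisted on this ground, and a peak can also go unlisted for its length. These genes were chosen for an APOC2 peak listed at a nearly equal p, so their depth-scaled APOC2 pileup had to lie above this limit, and the ratio of pileup to limit only describes the margin. Its median was 1.80 (range 1.04 to 3.45). The ratio was 3.45 at UQCR10, 2.85 at NDUFV3, 2.80 at UQCRC2 and 2.78 at UQCRC1. It was 1.04 at NDUFA13. The limits assume a shared control and the same background in both libraries, and at 4 of the 14 shared members the backgrounds differed by over 1.2 times, so the true vector pileup may lie above them. The nearest vector peak lay at least 15.5 kb from any of the 30 genes.

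**Figure D3:**
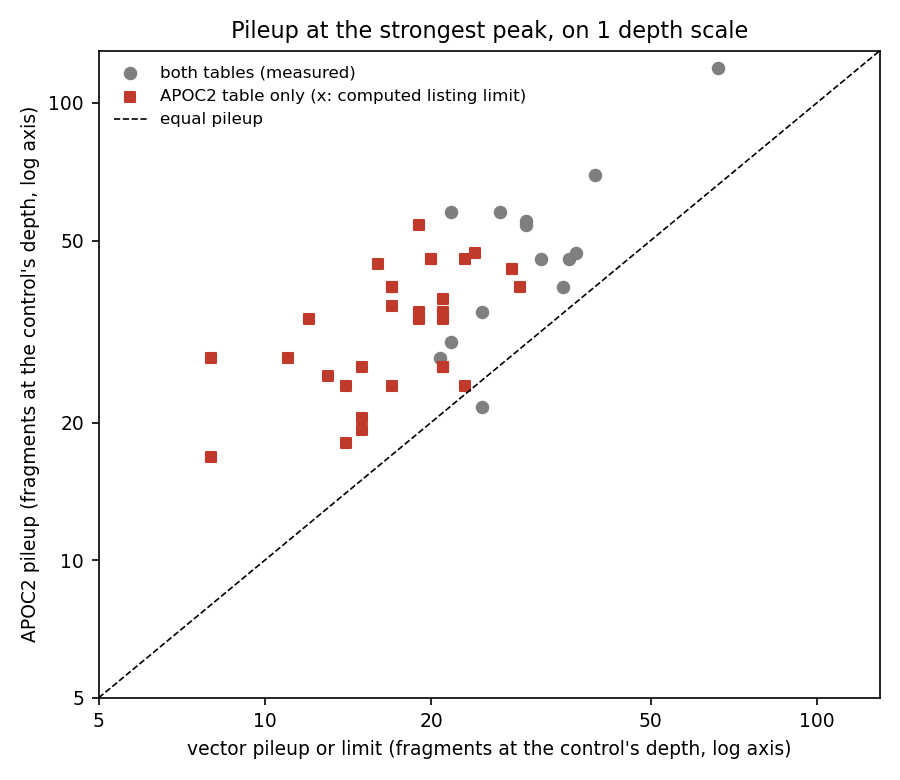
Pileup at the strongest peak in the vector (x) and APOC2 library (y), in fragments at the depth of the control, on log axes. Grey points are the 14 genes in both tables; red squares are the 30 genes in the APOC2 table only, placed at the highest vector pileup that could have gone unlisted at the background of the APOC2 peak, which is not a measured value. The square nearest the dashed line of equal pileup is NDUFA13, and the only point below the line is UQCRB.

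The peaks lay at gene starts. A promoter entry, and with it a strand, was found for 79 of the 97 members and for 37 of the 44 occupied ones. At all 37 the strongest APOC2 peak was nearer the start than the end, against 97.6% of the 3819 occupied coding genes with a promoter entry. The summit was downstream of the transcription start at 29 and upstream at 8, with a median of 136 bp downstream (quartiles 86 and 172 bp). Over the 3726 occupied coding genes with a promoter entry and the APOC2 peak nearer the start, 70.5% of summits were downstream. Their median was 126 bp downstream (quartiles -204.75 and 183 bp). At 28 of 37 members the summit fell between 50 and 250 bp downstream, a range set after the values were seen. It did so at 58.4% of the 3726 coding genes. No summit of a member, and 3.54% of those of the same coding genes, lay from 150 bp upstream to 50 bp downstream of the start. This range was also set after the values were seen. In the whole window of the promoter entries there were 2 of 37 summits, those of NDUFS6 (-197 bp) and NDUFAF7 (-155 bp). For the same coding genes the share was 9.63%. None of the 9 occupied genes with a promoter printed above had its summit inside the printed run. Among the upstream summits were those of ATP5F1A (at -300 bp from the start), UQCRC2 (-464 bp) and UQCRH (-539 bp), and NDUFAF3 was farthest downstream at 871 bp. At COX4I1 the strongest vector summit was at -308 bp and the strongest APOC2 summit at 152 bp from the start, within an APOC2 peak of 780 bp that covered both.

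**Figure D4:**
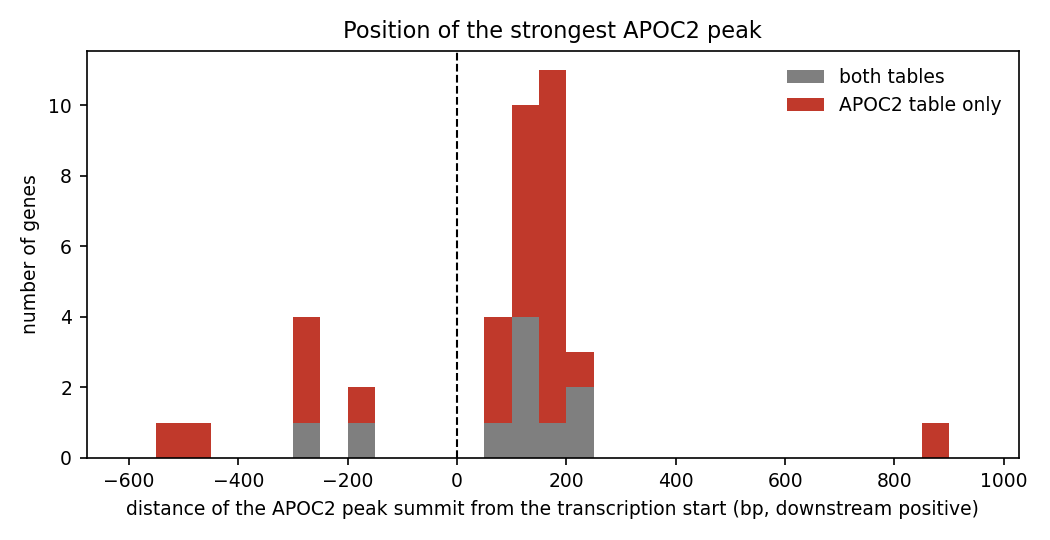
Distance of the strongest APOC2 summit from the transcription start (x axis, bp, downstream positive) for the 37 occupied genes with a known start, as a stacked histogram in 50 bp bins (y axis, number of genes). Of these, 28 summits lie 50 to 250 bp downstream, and none lies between 150 bp upstream and 50 bp downstream.

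A second APOC2 peak lay within 1 kb at 4 members. At ATP5F1C it had a fold enrichment of 3.34, beside 11.6 for the stronger peak, and its midpoint was upstream of the start. The second peaks of NDUFV2, NDUFV3 and NDUFAF6 had 4.31, 4.92 and 3.22. In the vector library no member had more than 1 peak, but that library had 4015 peaks in all against 8928. The shares of all coding genes with a second peak were not computed.

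Some peaks lay near other genes too. At 28 of the 44 occupied members the APOC2 peak was within 1 kb of either annotated end of another gene of any type. At 23 that included another protein-coding gene, with NDUFC2 and NDUFC2-KCTD14 each counted through the other. Such a peak cannot be assigned to 1 gene. The same shares over all occupied coding genes were not computed. NDUFB5 and NDUFS6 share their peaks with the mitochondrial ribosomal protein genes MRPL47 and MRPL36. NDUFA8 shares its peak with MORN5, NDUFB9 with TATDN1, COX4I1 with EMC8, NDUFAF2 with the repair gene ERCC8, and NDUFAF6 with the cyclin gene CCNE2. The remaining 16 members, including NDUFV2, NDUFAF1, UQCRC1, UQCRC2, COX5A, COX6C, SDHAF1, SDHAF3 and SDHAF4, had a peak at no other annotated gene.

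Motifs were then counted in the promoters of members with and without an APOC2 peak. NRF1 matches were found in 26 of 79 member promoters (32.9%), against 11.1% of the 15101 coding promoters of the table. They were in 13 of 37 occupied and 13 of 42 unoccupied members. Over all coding promoters, NRF1 matches were in 18.7% of those occupied in the APOC2 library and 8.53% of those in neither table. The same shares were 22.5% and 11.6% for ETS, and 4.43% and 2.25% for YY1. ETS matches were in 22 member promoters (27.8%, against 14.4%), with 9 among occupied and 13 among unoccupied ones, and YY1 matches in 8 (10.1%, against 2.79%), with 2 and 6. An SP/KLF match was in all 10 promoters of genes in both tables, in 16 of 27 in the APOC2 table only and in 21 of 42 in neither. Over all coding promoters the shares were 79.1% in both tables, 76.3% in the APOC2 table only and 52.7% in neither (58.9% in all). A TATA box match was in 1 of 37 occupied and 5 of 42 unoccupied members, COX6A2 among the latter. Over coding promoters it was in 4.11% of those occupied in the APOC2 library and 11.6% of those in neither table (9.71% in all). A CCAAT match was in 11 occupied and 15 unoccupied members, beside 35.9% and 36.0% over coding promoters. The median GC content was 61.3% in occupied and 60.8% in unoccupied members, where it was 67% and 61% over coding promoters. The observed over expected CpG ratio was 0.84 and 0.86, beside 0.88 and 0.70. No test was made, and a match of letters is not a bound site.

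The 53 unoccupied members included several core subunits of complex I as well as isoforms of restricted expression. NDUFV1 and NDUFS1, which carry the flavin and most of the iron-sulfur clusters of the NADH-oxidizing module, had no peak, nor did the core subunits NDUFS3, NDUFS7 and NDUFS8, whereas the core subunit NDUFV2 had one in both tables. The accessory subunits NDUFS4 and NDUFS5 had none. Other complex I genes without a peak included NDUFA2, NDUFA3, NDUFA5, NDUFA7, NDUFA9, NDUFA11, NDUFB1, NDUFB4, NDUFB6, NDUFB7, NDUFB8, NDUFB10 and NDUFC1. In complex IV, COX5B, COX6A1, COX7A2, COX7C and COX7A2L (a factor for respiratory supercomplexes) had none. Of all coding genes, 14390 of 19126 had no peak in either table. All 7 tissue-restricted or duplicate genes among the members, COX4I2, COX6A2, COX6B2, COX7A1, COX7B2, COX8C and ATP5MGL, had none either. Of their widely expressed counterparts among the members, COX4I1, COX6B1 and COX8A had an APOC2 peak and COX6A1, COX7A2 and ATP5MG did not. In complex V the remaining unoccupied genes were ATP5IF1 (the inhibitor), ATP5ME, ATP5MF, ATP5MF-PTCD1, ATP5MG and ATP5MK. The nearest APOC2 peak lay a median of 39.1 kb from these 53 genes (range 1.19 to 1005 kb).

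At the edge of the window, only the strongest peak of each gene was ranked. The most distant midpoints of these were at NDUFAF3 (886.5 bp), NDUFAF1 (671.5 bp) and UQCRH (515.5 bp), all in the APOC2 table. The nearest APOC2 midpoints outside the window were those of NDUFA11 (1191.5 bp), NDUFC1 (1479 bp) and NDUFS8 (2342 bp). In the vector table the nearest midpoint outside was 4.59 kb away, at UQCR11.

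The position of the genes on chromosomes moved with the overlap of the tables. Of the 6 members on chromosomes 8 and 9, 5 were occupied in the APOC2 library and 4 (NDUFB9, UQCRB, COX6C and NDUFA8) in both. Of the 91 on other chromosomes, 39 were occupied in the APOC2 library and 10 in both. Of all 1493 coding genes on chromosomes 8 and 9, 40.0% were occupied in the APOC2 library and 23.8% in the vector library. Over all coding genes the shares were 24.7% and 6.19%. Over all coding genes on chromosomes 8 and 9, 58.8% of those occupied in the APOC2 library were occupied in the vector library too, against 24.6% in all. The part of chromosomal position in the result was not tested.

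Related genes outside the symbol rule were examined from lists made by function, also with earlier results of these data known. Of 56 such genes, 6 had a peak in both tables, 16 in the APOC2 table only, 1 in the vector table only and 33 in neither. In the APOC2 library 39.3% were thus occupied, against 24.7% of all coding genes. By list the share was 52.2% for complex IV factors, 33.3% for complex III factors, 30% for complex I factors and 16.7% for regulators. CYC1, cytochrome c1 of complex III, had fold enrichments of 7.24 and 10.7, and CYCS, the cytochrome c gene, had no peak. Of 23 complex IV assembly factors, 2 were in both tables, 10 in the APOC2 table only and 1, COA4, in the vector table only, with a fold enrichment of 6.002. SURF1 had 7.08 and 12.2, and CMC1 had 7.43 and 11.01. The copper chaperone SCO1 and the membrane insertase COX18 had 6.20 and 6.97 in the APOC2 library only. Of the 3 complex V factors, TMEM70 had 4.62 and 12.5, ATPAF1 had 4.45 and 3.52, and ATPAF2 had no peak. Of 10 further complex I factors 3 (NUBPL, FOXRED1 and ECSIT), and of 6 complex III factors 2 (BCS1L and TTC19), had a peak, in the APOC2 table only.

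Of the 12 regulators of mitochondrial gene expression, NRF1 itself had a peak in both tables, with fold enrichments of 3.04 and 4.81, and POLRMT, the mitochondrial RNA polymerase gene, had 6.29 in the APOC2 table only. The others, among them PPARGC1A, TFAM, GABPA, YY1 and ESRRA, had none within 1 kb. The X-linked subunit genes NDUFA1, NDUFB11 and COX7B, which the autosomal rule leaves out, had no peak, and neither had APOC2 nor PHF8.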

How the data were processed

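ChIP-seq of PHF8 was deposited as 1 peak table for each condition, called per sample. Bowtie2 2.2.9, MACS2 2.0, HOMER and build hg38 are named, with no role or order, per the submitters' processing notes. The control library, thresholds and removal of duplicates are not given in the sources used here. Per the file headers, the tables hold the signal (fragment pileup at the summit) and the fold enrichment, a ratio over local background with 1 added to both terms. A pair of deposited columns had lost its name and was read as -log10 of the p-value and q-value by its place. A recomputed Poisson tail lay within 0.1 of the listed -log10 p for 99.7% of vector and 99.9% of APOC2 peaks. Read totals were unknown.

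Genes came from a RefSeq table (GRCh38.p14) that gives no strand; starts and strands came from RefSeq promoter entries. Occupancy was computed in Python 3.11.15 with pandas 2.3.3, was the same with bedtools 2.31.1, and was tested on simulated data. Where a gene had several peaks, the one with the highest fold enrichment was used. Vector pileups lay on steps of 0.98953, with a tolerance of 0.006. APOC2 pileups were whole, and 63.6% of its backgrounds between 1.5 and 12 lay on steps of 0.83248, with a tolerance of 0.001. Depth-scaled pileup divides the APOC2 values by the latter. Groups came from the treatment in the labels.

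Genes named with values are those in both tables, the strongest 3 and weakest 1 in the APOC2 table only for each complex, and those in the lists of related genes made by function. Values of UQCRQ, UQCRFS1, SDHAF2, SDHAF3, NDUFAF5, NDUFAF6 and NDUFAF7, the range over the middle complex I genes, and second peaks were added beyond this rule. The 14 shared genes were all given, where the rule asked for the 12 strongest. The members and lists were chosen with earlier results of these data known. No p-value was computed between conditions. Of the set, 1 gene is counted but not reported by name here. Alternatives changed the window, the peaks used, the members and the measure.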

Additional observations from a re-analysis of the deposited data

How the results depend on the processing

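Of 63 recomputed values, 54 did not change and 9 did, and none reversed. For a number of genes a change means a move of over 1.5 times, and for a median a value outside its 95% interval. Windows of 500 bp and 3 kb and any base of the peak in place of its midpoint moved no gene number by over 1.5 times. Neither did the transcription start alone, a q-value of at most 0.001, the structural subunits alone or the members outside chromosomes 8 and 9. Under these settings the members occupied in the APOC2 table ranged from 33 of 84 (structural subunits) to 48 of 97 (3 kb window). With a fold enrichment of at least 5, 9 members had a vector peak (3.35% of all coding genes) and 25 an APOC2 peak (14.6%). At this threshold 16 members kept an APOC2 peak without a vector peak, against 11.4% of all coding genes. Peaks from both libraries remained at 9 members, against 3.18%. With equal numbers of top-ranked peaks, 24 members were occupied in the APOC2 table (13% of all coding genes) and 12 in the APOC2 table only (7.96%). The vector table only then held 2 members, NDUFAF2 and UQCRB, and 1.13% of all coding genes. The median log2 ratio at shared members stayed above 0 with every measure, from 0.25 with raw pileup to 0.77 with -log10 p. The medians of fold enrichment became 28 (APOC2 table only) and 38.5 (both tables) with pileup, which is another unit. No paired analysis was possible because there was 1 library for each condition, and leaving out a replicate was not possible either. Read totals were unknown, so the effect of depth was not tested. COX6B1 and NDUFA13 were lost at a q-value of at most 0.001.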
